A study of Homo sapiens with 6 samples.

Results

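The 10 genes described here belong to the interleukin 1 (IL-1) and interleukin 6 (IL-6) families and were read in RNA-seq libraries of pancreatic ductal adenocarcinoma (PDAC) cells. They were taken by symbol, as IL1A, IL1B, IL1RN, IL1R1, IL18, IL6, IL6R, IL6ST, LIF and IL11, and all 10 were found among the 41768 genes of the table. The cells were PANC-1, an established human PDAC line, and a PDAC line that the labels call 90. Each line had 1 library labelled NC and 2 labelled siALDOA (siALDOA 1 and siALDOA 2), so the 6 libraries form 4 groups, with si taken to mean an siRNA (small interfering RNA) that targets ALDOA, the gene of the glycolytic enzyme aldolase A. The sources used here do not give the meaning of 90, of NC or of the numbers 1 and 2 after siALDOA. Nothing says that the libraries come from separate cultures, and p-values then measure the spread between libraries alone, which may be technical.

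IL-1α and IL-1β, the products of IL1A and IL1B, bind the receptor IL1R1 and, with its partner IL1RAP, signal through MYD88 and IRAK kinases to NF-kB. IL1RN encodes the antagonist that occupies IL1R1 without signalling, and IL-1β and IL-18 are made as precursors that caspase-1, activated in inflammasomes, cuts into active cytokines. The IL-6 family shares the signalling receptor gp130, the product of IL6ST, which pairs with IL6R for IL-6, with IL11RA for IL-11 and with LIFR for LIF, and passes the signal to JAK kinases and STAT3. In pancreatic cancer, IL-1 from tumour cells is known to act on stellate cells and fibroblasts, which are a known source of IL-6 and LIF.

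The values are FPKM (fragments scaled to gene length in kilobases and to library size in M, mega, fragments). Library totals recovered from them lay between 17.8 and 21.8 M fragments, and Poisson intervals made from the fragments cover counting error only. In the order NC, siALDOA 1 and siALDOA 2, ALDOA had 726, 262 and 318 FPKM in the 90 line and 906, 501 and 462 FPKM in PANC-1. It was lower in every siALDOA library than in the NC library of its line. All 6 epithelial markers reached 1 FPKM, with a summed level of 4852 to 6643 FPKM in 90 and 3395 to 4360 in PANC-1. Of these, 4 were called lower in PANC-1, as IL1A, IL1B and IL1RN were. KRT8 and KRT18 were not called and tended the other way. KRT8 was at 1074 to 1506 FPKM in 90 and 1523 to 1969 in PANC-1. KRT18 was at 956 to 1228 FPKM in 90 and 1194 to 1578 in PANC-1. KRT7 was at 905 to 1350 FPKM in 90 and 6.24 to 11.5 in PANC-1, CDH1 at 37.9 to 44.5 and 1.18 to 2.05, and EPCAM at 88.6 to 154 and 7.51 to 17.5. Of 8 leukocyte markers, CD68 alone reached 1 FPKM, and PTPRC, the common leukocyte antigen, and LYZ were at or near 0. The leukocyte sum was 31.4 to 51.8 FPKM in 90 and 125 to 163 in PANC-1. Of 8 fibroblast markers COL1A1 and ACTA2 reached 1 FPKM, with a list sum of 5.82 to 8.44 in 90 and 11.5 to 15.8 in PANC-1, and of 4 endothelial markers CDH5 did, with sums of 3.66 to 3.83 and 0.027 to 0.051. The part of these lists in the results was not tested. The libraries labelled siALDOA 1 stand apart in each line: against the NC library, 16.1% of the 12592 tested genes differed by at least 2-fold in siALDOA 1 of 90 and 11.3% in siALDOA 1 of PANC-1, compared with 1.74% and 4.07% in siALDOA 2.

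Of the 8 tested genes of the families, the lines differed most in IL1A, IL1B and IL1RN. The agonists IL1A and IL1B and the antagonist IL1RN were abundant in 90 and had at most 30 fragments per library in PANC-1, IL18 and LIF were lower in PANC-1 to a smaller degree, and the IL-6 receptor IL6R and the ligand IL11 were higher in PANC-1. The shared receptor IL6ST varied more within each line than between the lines. The 8 tested genes are those that averaged 1 FPKM or more across all libraries, and 7 of them passed at an adjusted p under 0.05 (limma, Benjamini-Hochberg over all tested genes), 5 lower and 2 higher in PANC-1. The background is large, since 38.8% of all tested genes passed, 18.4% lower and 20.4% higher. IL1A, IL1B and IL1RN reached the 1 FPKM limit only through 90, and IL6R only through PANC-1, so their calls follow in part from that limit. The libraries of the lines did not overlap for 9 of the 10 genes, IL6ST being the exception, and among the 8 tested genes for 7, against 54.1% of all tested genes. These are bulk samples, in which fewer cells that make a transcript and less of it per cell cannot be told apart.

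**Figure D1:**
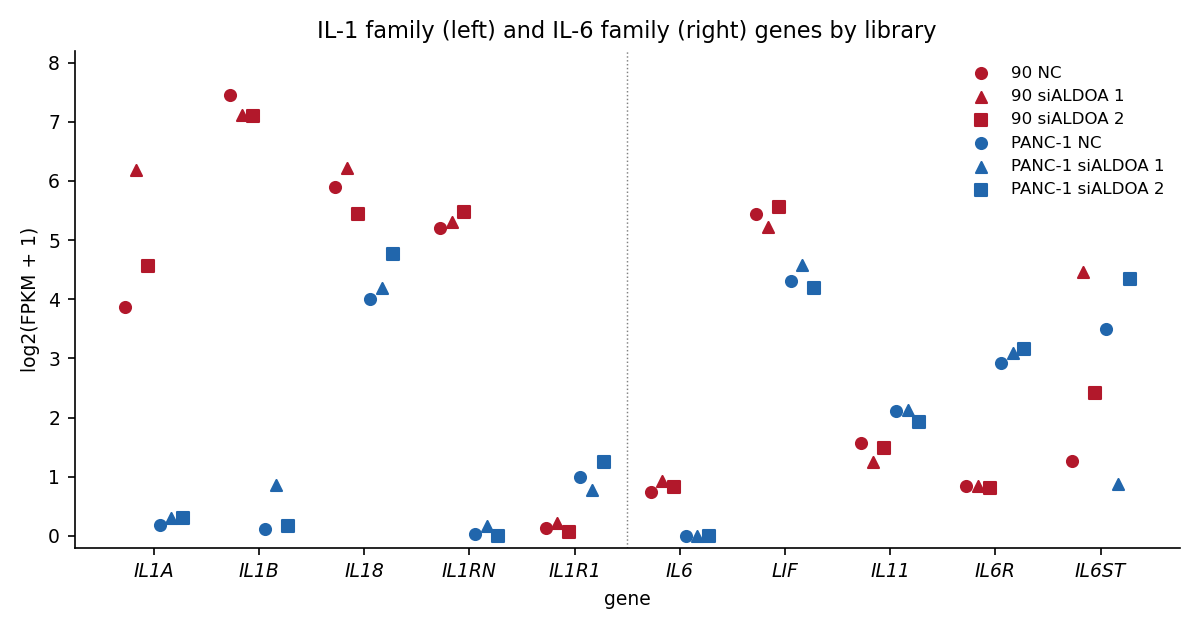
Level of each of the 10 genes in the 6 libraries, as log2(FPKM + 1), with 1 point per library. IL1A, IL1B and IL1RN lie between 13.6 and 174 FPKM in 90 and below 1 FPKM in PANC-1, and the IL6ST points of the lines are interleaved.

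IL1B (chromosome 2, 112829751 to 112836903, minus strand, GRCh38) encodes IL-1β, the secreted agonist. It was at 174, 137 and 136 FPKM in NC, siALDOA 1 and siALDOA 2 of 90, and at 0.0859, 0.812 and 0.126 FPKM in the same libraries of PANC-1. All 3 libraries of 90 were high and all 3 of PANC-1 were near 0, with siALDOA 1 the highest among those. On the log2(FPKM + 1) scale, on which fold changes of low genes are understated, the difference between PANC-1 and 90 was -6.84 ± 0.27 (SE, adjusted p = 0.0001822). Pooled over 3 libraries each, 14125 fragments in 90 and 37 in PANC-1 gave a level 415 times as high in 90. As 30 of those 37 fragments came from siALDOA 1 of PANC-1, the ratio without that library was 1410 (95% exact interval 685 to 3510).

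IL1A (chromosome 2, 112773915 to 112784590, minus strand) encodes IL-1α, which is active as a precursor and is often held in the cell. Its level was 13.6, 72.1 and 22.6 FPKM in NC, siALDOA 1 and siALDOA 2 of 90, and 0.132, 0.235 and 0.237 FPKM in PANC-1. The lines did not overlap, and within 90 the siALDOA 1 library stood above the other libraries. The difference was -4.61 ± 0.53 on the log2(FPKM + 1) scale (adjusted p = 0.002546), and the pooled level was 184 times as high in 90, or 91.0 times without siALDOA 1 of 90. The ratio of IL1B to IL1A in 90 was 12.8 in NC, 1.90 in siALDOA 1 and 5.99 in siALDOA 2, while the sum of both agonists was 188, 209 and 158 FPKM.

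IL1RN (chromosome 2, 113107214 to 113134016, plus strand) encodes the IL-1 receptor antagonist. It was at 35.7, 38.4 and 43.2 FPKM in 90 and at 0.0252, 0.119 and 0 FPKM in PANC-1, where it rests on 1, 5 and 0 fragments. The antagonist thus had the same split between the lines as both agonists, with a difference of -5.25 ± 0.16 on the log2(FPKM + 1) scale (adjusted p = 0.0001791). The 4238 fragments in 90 and 6 in PANC-1 gave a pooled level 768 times as high in 90 (95% exact interval 353 to 2090). Without siALDOA 1 of PANC-1, which held 5 of the 6, it was 2960 times as high, with an interval of 532 to 117000. The agonists together exceeded IL1RN by 5.26, 5.45 and 3.66 times in NC, siALDOA 1 and siALDOA 2 of 90.

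The few IL1B and IL1RN fragments of PANC-1 were most numerous in its siALDOA 1 library, with 30 IL1B fragments compared with 3 in NC and 4 in siALDOA 2. That library also had more genes above 0, 23356 compared with 19544 in NC and 19966 in siALDOA 2. Among 115 other genes with 20 FPKM or more on average in 90 and less than 1 FPKM in every PANC-1 library, a set chosen after seeing the data, 102 (88.7%) were highest in siALDOA 1 among the PANC-1 libraries. Their median level was 0.279% of the 90 mean in NC, 0.765% in siALDOA 1 and 0.342% in siALDOA 2. In the same order IL1B stood at 0.0577%, 0.545% and 0.0847% of its 90 mean, IL1RN at 0.0645%, 0.305% and 0%, and IL1A, which was not highest in siALDOA 1, at 0.367%, 0.65% and 0.657%. The part of these differences in the IL1B and IL1RN values was not tested.

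IL18 (chromosome 11, 112143251 to 112164117, minus strand) encodes a cytokine of the IL-1 family that epithelial cells commonly store as a precursor. It was at 58.9, 73.5 and 42.3 FPKM in 90 and at 15.1, 17.2 and 26.2 FPKM in PANC-1. Both lines expressed it and their libraries did not overlap. The difference was -1.53 ± 0.30 on the log2(FPKM + 1) scale (adjusted p = 0.01343), a pooled level 3.03 times as high in 90, but without the NC library of 90 the adjusted p was 0.0911 and without that of PANC-1 0.0882.

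IL1R1 (chromosome 2, 102064544 to 102179874, plus strand), the signalling receptor for both agonists, had the opposite order. It was at 0.104, 0.161 and 0.0484 FPKM in 90 and at 1.0, 0.717 and 1.37 FPKM in PANC-1, so the line with the abundant ligands had the lower receptor transcript. Its mean over the 6 libraries was 0.566 FPKM, below the limit for the test. Pooled over 32 fragments in 90 and 336 in PANC-1, its level was 9.66 times as high in PANC-1. With no limit on low values, which 21.7% of all genes then passed, the difference was 0.87 on the log2(FPKM + 1) scale (limma adjusted p = 0.0193), and limma-voom on recovered fragments, which called 38.7% of its genes, gave 3.33 ± 0.55 (adjusted p = 0.00862). The exact two-sided permutation test of 3 against 3 libraries gave p = 0.1, the smallest it can give.

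The start regions of the IL-1 agonists are shown because these neighbouring genes shared the split between the lines. Each line holds the 250 bases before the first RefSeq start of the gene (GRCh38.p14, coding strand, 5′ to 3′), with letters matching a searched motif in capitals. The windows are chr2:112784494-112784743 for IL1A and chr2:112836780-112837029 for IL1B, both on the minus strand.
IL1A: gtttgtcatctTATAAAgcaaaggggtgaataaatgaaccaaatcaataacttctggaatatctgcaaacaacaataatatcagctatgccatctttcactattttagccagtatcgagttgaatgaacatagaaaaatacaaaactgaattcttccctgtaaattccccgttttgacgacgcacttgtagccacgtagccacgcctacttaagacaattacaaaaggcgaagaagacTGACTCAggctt
IL1B: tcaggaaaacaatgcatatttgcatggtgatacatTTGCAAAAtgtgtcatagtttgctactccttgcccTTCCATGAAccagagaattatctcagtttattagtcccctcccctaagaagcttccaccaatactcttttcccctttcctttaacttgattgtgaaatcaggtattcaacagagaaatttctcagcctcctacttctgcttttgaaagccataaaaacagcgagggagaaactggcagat
In the IL1A window the capitals mark TATAAA, at 239 to 234 bases before the start, and the AP-1 motif TGANTCA, at 12 to 6 bases before it. In the IL1B window they mark the C/EBP motif TTGCNNAA, at 215 to 208 bases before the start, and the STAT motif TTCNNNGAA, at 180 to 172 bases before it. TATAAA was searched on the coding strand and the others on both strands, beside the NF-kB consensus. The background was the 250-base windows of all 35116 RefSeq promoters, alternative starts of a gene included. Of these, 6.8% held TATAAA, 6.57% the AP-1, 9.05% the C/EBP, 6.57% the STAT and 9.96% the NF-kB motif. Each match is therefore common and describes letters only.

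The 3 genes IL36B, IL37 and IL36RN of the family lie between IL1B and IL1RN on chromosome 2 and were read beside them. IL36B, an agonist of the IL-36 receptor, was at 15.2, 23.9 and 19.4 FPKM in 90 and at 0, 0.116 and 0.045 FPKM in PANC-1, a difference of -4.26 ± 0.19 (adjusted p = 0.000217). IL37, a member with anti-inflammatory activity, was at 4.3, 2.92 and 3.54 FPKM in 90 and at 0, 0.119 and 0 FPKM in PANC-1, a difference of -2.13 ± 0.19 (adjusted p = 0.001094). Both were high in the same libraries as IL1A, IL1B and IL1RN, and both reached the 1 FPKM limit only through 90, so their calls follow in part from it. IL36RN, the IL-36 antagonist, was at 0.419 to 0.526 FPKM in 90 and at 0 to 0.0198 FPKM in PANC-1 and was not tested. The cluster was not high as a whole, since IL36A and IL1F10 had at most 1 fragment in any library and IL36G at most 4.

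IL6 (chromosome 7, 22725884 to 22732002, plus strand), the cytokine that names the second family, was the lowest of IL6, LIF and IL11 in each line. It was at 0.677, 0.908 and 0.781 FPKM in 90, from 17, 25 and 21 fragments, and no fragment was counted in any PANC-1 library. Against 3 fragments over the 3 PANC-1 libraries, put in place of the count of 0, its level was 22.8 times as high in 90. The exact 95% interval of the pooled ratio, which also covers the counting error of 90, began at 18.0. The gene was below the limit for the test. With no limit on low values the difference was -0.84 on the log2(FPKM + 1) scale (limma adjusted p = 0.0029), limma-voom gave -5.53 ± 0.37 (adjusted p = 0.000749), and the exact permutation p was 0.1.

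LIF (chromosome 22, 30240447 to 30246851, minus strand), leukaemia inhibitory factor, was the most abundant of these 3 ligands in each line. It was at 42.6, 36.4 and 46.2 FPKM in 90 and at 18.7, 22.8 and 17.3 FPKM in PANC-1. All libraries of 90 were above all of PANC-1. The difference was -1.06 ± 0.17 on the log2(FPKM + 1) scale (adjusted p = 0.007868), a pooled level 2.11 times as high in 90. Without the NC library of 90 the adjusted p was 0.0716, and without that of PANC-1 0.0677.

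IL11 (chromosome 19, 55364389 to 55370463, minus strand), a cytokine of the family tied to fibroblasts and fibrosis, was low in both lines and higher in PANC-1. It was at 1.99, 1.38 and 1.79 FPKM in 90 and at 3.34, 3.37 and 2.81 FPKM in PANC-1. The libraries did not overlap and the difference was 0.62 ± 0.18 on the log2(FPKM + 1) scale (adjusted p = 0.04461), but the call was lost in 13 of 19 alternative settings, with adjusted p from 0.0067 to 0.266. LIF exceeded IL11 by 21.4 to 26.4 times in 90 and by 5.60 to 6.76 times in PANC-1.

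The start regions of IL6 and IL11 are shown as those of the low ligands, which had opposite orders between the lines. The windows are chr7:22726950-22727199, plus strand, for IL6 and chr19:55370464-55370713, minus strand, for IL11, printed as those of the IL-1 agonists.
IL6: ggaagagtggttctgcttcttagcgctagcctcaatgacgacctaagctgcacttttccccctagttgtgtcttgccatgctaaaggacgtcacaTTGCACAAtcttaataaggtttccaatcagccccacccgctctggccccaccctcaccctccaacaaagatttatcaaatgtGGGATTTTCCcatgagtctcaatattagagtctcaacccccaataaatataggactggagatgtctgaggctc
IL11: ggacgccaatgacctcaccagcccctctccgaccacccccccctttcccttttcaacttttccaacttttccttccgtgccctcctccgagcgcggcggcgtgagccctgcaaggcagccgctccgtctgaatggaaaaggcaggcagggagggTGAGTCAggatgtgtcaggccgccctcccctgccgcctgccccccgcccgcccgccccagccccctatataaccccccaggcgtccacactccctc
Capitals in the IL6 window mark the C/EBP motif, at 155 to 148 bases before the start, and GGGATTTTCC, a match of the NF-kB consensus, at 73 to 64 bases before it. The capitals of the IL11 window mark the AP-1 motif, at 96 to 90 bases before the start. RefSeq windows were matched for 8 of the 10 genes, and IL18 and LIF were the genes without one.

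IL6R (chromosome 1, 154405193 to 154469450, plus strand) encodes the receptor that binds IL-6. It was at 0.789, 0.797 and 0.763 FPKM in 90 and at 6.57, 7.55 and 7.90 FPKM in PANC-1, with little spread inside each line. The difference was 2.22 ± 0.16 on the log2(FPKM + 1) scale (adjusted p = 0.0006704), and the pooled level was 9.36 times as high in PANC-1. The line without an IL6 fragment was therefore the line with more IL6R transcript.

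IL6ST (chromosome 5, 55935095 to 55994993, minus strand) encodes gp130. It was at 1.40, 21.1 and 4.33 FPKM in NC, siALDOA 1 and siALDOA 2 of 90, and at 10.3, 0.834 and 19.2 FPKM in PANC-1. The siALDOA 1 libraries held the highest value of 90 and the lowest of PANC-1, and the lines overlapped. The difference of 0.19 ± 1.23 on the log2(FPKM + 1) scale did not pass (adjusted p = 0.929). Without siALDOA 1 of both lines it was 2.08. That fit left 1 library in each group, so only the size of the difference is given. The ratio of IL6ST to IL6R ranged from 1.77 to 26.5 in 90 and from 0.111 to 2.44 in PANC-1.

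**Figure D2:**
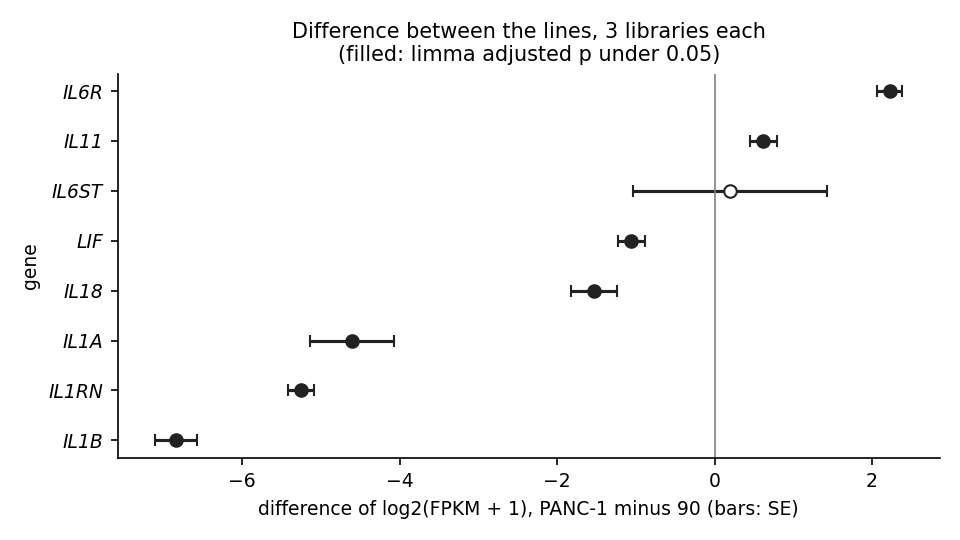
Difference of log2(FPKM + 1) between the lines, PANC-1 minus 90, for the 8 tested genes, with bars for 1 standard error. IL1B, IL1RN and IL1A lie furthest to the left, at -6.84, -5.25 and -4.61, IL6R lies to the right at 2.22, and the bar of IL6ST spans 0.

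Ordered by mean level per length, IL1B was first in 90 and did not overlap with the next gene. IL18, LIF, IL1RN, IL1A and IL6ST followed in 90, each overlapping with its neighbour, then IL11, then IL6 and IL6R, which overlapped, and IL1R1 last. In PANC-1, LIF and IL18 led with overlapping libraries and means of 19.6 and 19.5 FPKM, followed by IL6ST and IL6R. IL11 stood clear of its neighbours in PANC-1, IL1R1 overlapped with IL1B and IL1B with IL1A, and IL1RN and IL6 were last. IL-1 ligands thus headed the order in 90, while a ligand of each family headed it in PANC-1.

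After siALDOA, none of the 8 tested genes of the families passed, whether over both lines, in 90, in PANC-1 or for the difference between the lines' responses. This was also so for every other gene: limma called 0 of 12592 (0.0%) in each of these 4 comparisons, with 43, 33, 21 and 24 genes at an unadjusted p under 0.05, and limma-voom on recovered fragments called 0 as well. ALDOA itself thus did not pass. It was at 0.36 and 0.44 of its NC level in siALDOA 1 and siALDOA 2 of 90, and at 0.55 and 0.51 in PANC-1. A change of that size was missed, so the absence of calls does not show that the genes of the families were unchanged. The standard errors rest on 1 NC library per line and also on the spread between siALDOA libraries, pooled over both lines. For the change within a line they were therefore the same in 90 and in PANC-1, at 1.75 for IL6ST and 0.31 for LIF.

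IL1A had the smallest p of the 8 genes over both lines and in 90. Its change from NC to the siALDOA libraries was 0.82 ± 0.57 on the log2(FPKM + 1) scale over both lines (limma, unadjusted p = 0.207, adjusted p = 1.0), 1.51 ± 0.76 in 90 (unadjusted p = 0.1165) and 0.13 ± 0.76 in PANC-1. IL6ST had larger changes of opposite sign with larger errors, 2.18 ± 1.75 in 90 and -0.89 ± 1.75 in PANC-1. IL1B was lower than NC in both siALDOA libraries of 90, with a change of -0.35 ± 0.39, and above it in PANC-1, with one of 0.40 ± 0.39. LIF, IL11, IL6R and IL1RN stayed within 0.35 log2 units of NC in every siALDOA library. For IL1RN in PANC-1, with 1, 5 and 0 fragments in NC, siALDOA 1 and siALDOA 2, this scale leaves little room for change. Its small values there do not show a stable level.

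Both siALDOA libraries lay on the same side of NC for 5 of the 8 tested genes in 90, where 43.1% of all tested genes did so, and for 4 of 8 in PANC-1, compared with 40%. IL6ST in 90 was the only one of the 8 genes with both libraries at least 2-fold to the same side, which 0.802% of all tested genes were in 90 and 0.159% in PANC-1. The genes on the same side in 90 were IL1A, IL1RN and IL6ST, higher than NC, and IL1B and IL11, lower. In PANC-1 they were IL1A, IL1B, IL18 and IL6R, all higher. There IL1A rests on 8, 15 and 13 fragments and IL1B on 3, 30 and 4, in NC, siALDOA 1 and siALDOA 2. The Poisson intervals of IL1A overlapped between NC and both siALDOA libraries, and those of IL1B between NC and siALDOA 2. The side of NC is thus not settled by the counts in these cases.

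The largest single changes of these genes lay where changes followed GC content across all genes. IL6ST, IL1A and IL18, with 36.6%, 39.1% and 39.2% GC in their longest transcript, belong to the lowest eighth of genes by GC (25% to 39.6%, 1426 genes). The median change of that eighth from NC was 1.40 log2 units in siALDOA 1 of 90, 0.115 in siALDOA 2 of 90, -1.02 in siALDOA 1 of PANC-1 and 0.562 in siALDOA 2 of PANC-1. IL6ST changed by 3.20, 1.15, -2.62 and 0.84 in these libraries, the same signs, and by 1.75, 0.99, -1.55 and 0.26 after a correction for GC. IL1A changed by 2.33, 0.70, 0.12 and 0.13, and by 1.21, 0.76, 0.92 and -0.41 after the correction. Before the correction its sign was against that of the eighth's median in siALDOA 1 of PANC-1 only. IL1A was at 0.179 log2 units in NC of PANC-1, from 8 fragments, so it could not fall by more than that. A fall as large as the median of -1.02 was therefore not possible there. The corrected -0.41 is a larger fall than its level allows. IL18 changed by 0.31, -0.47, 0.18 and 0.75, with the sign of the eighth's median in 2 of the 4 libraries, and by -0.78, -0.39, 0.96 and 0.22 after the correction. In siALDOA 1 of 90, 98.2% of the genes of that eighth lay below IL6ST and 84.9% below IL1A, and 10.8% lay below IL18. In siALDOA 1 of PANC-1, 1.33% lay below IL6ST, 97.5% below IL1A and 97.8% below IL18. Given its low NC level, IL1A could not have lain much lower in that library. The part of GC content in these values was not tested further.

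**Figure D3:**
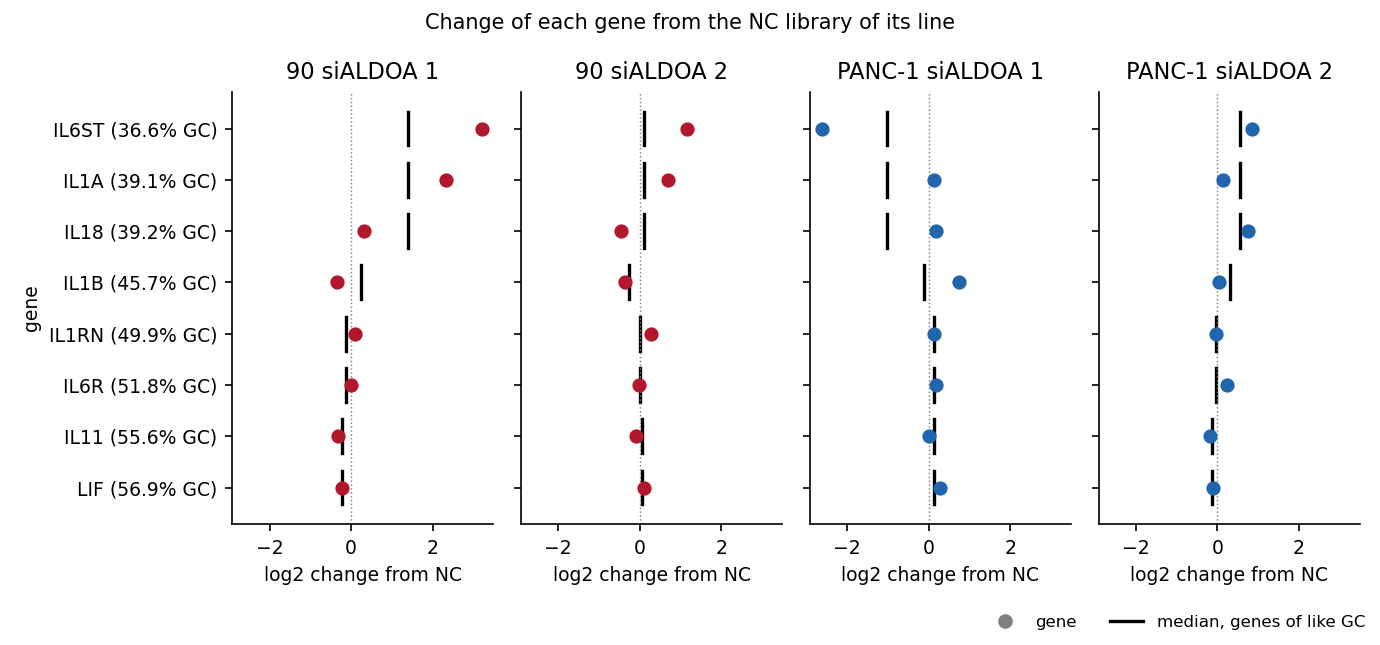
Change of log2(FPKM + 1) from the NC library of the line, for each tested gene (points, ordered by GC content) and as the median of all genes in the same eighth of GC content (black lines), in the 4 siALDOA libraries. IL6ST lies furthest from 0 in both siALDOA 1 libraries, at 3.20 in 90 and -2.62 in PANC-1, and the genes above 49% GC lie near 0. The low levels of IL1A, IL1B and IL1RN in PANC-1 leave little room for a fall.

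The genes whose levels were most like those of each tested gene were found by the Euclidean distance between log2(FPKM + 1) values over the 6 libraries, which share the difference between the lines. For IL1B the nearest were S100P (0.399) and ARHGDIB (0.404), and for IL1RN they were BTBD6 (0.212) and PCDH1 (0.258). IL1A was nearest to the chemokine CCL20 (0.772) and to the epithelial transcription factor EHF (0.8), which also had their highest values in siALDOA 1 of 90, at 50.0 and 55.0 FPKM. IL6ST was nearest to CEBPZ (0.241) and ATAD2 (0.262), whose lowest values were 1.43 and 1.18 FPKM in siALDOA 1 of PANC-1. For IL18 the nearest were TMED10 (0.287) and PLK2 (0.303), for LIF they were LIG1 (0.0461) and CCDC85C (0.0655), for IL11 ARHGAP39 (0.0597) and WASH2P (0.0699), and for IL6R the nearest was UPK1B (0.0659).

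The other genes of both pathways were read from fixed lists, with the median difference between the lines over all tested genes at 0.135 log2 units as deposited and 0.0229 with median-ratio scaling. The counts of each list stand against the 20.4% of all tested genes called higher and 18.4% called lower, and a share near these is no result about the list. Of 9 tested genes in the list of inflammasome genes and genes of IL-1 and IL-18 processing, 7 were lower and 1 was higher in PANC-1, with a median of -1.35. CASP1 and CARD16 reached the 1 FPKM limit only through 90, and of the 7 others 5 were lower and 1 was higher. CASP1, the protease that cuts both precursors, was at 6.41, 13.5 and 4.45 FPKM in 90 and at 0.217, 0.0456 and 0.0266 FPKM in PANC-1, a difference of -2.94 ± 0.41 (adjusted p = 0.00469). CARD16, a CARD-only regulator of caspase-1, differed by -3.04 ± 0.34 (adjusted p = 0.002349), and GSDME, a pore-forming gasdermin listed under its older symbol DFNA5, by -2.53 ± 0.19 (adjusted p = 0.0007031). The calpain CAPN1, gasdermin GSDMD and caspase CASP4 were also lower. PYCARD, the adaptor that links sensors to caspase-1, was the gene that was higher, by 1.32 ± 0.16 (adjusted p = 0.002849). The protease and its adaptor thus differed in opposite directions.

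Genes that signal from the IL-1 receptor showed no common direction. Of 10 tested, 3 were higher and 1 was lower in PANC-1, with a median of 0.11. TOLLIP, an adaptor that restrains the pathway, was higher by 1.6 ± 0.22 (adjusted p = 0.004439) and the kinase IRAK2 by 1.21 ± 0.14 (adjusted p = 0.002623), while TAB1, which activates the kinase TAK1, was lower, with a difference of -0.78 ± 0.21 (adjusted p = 0.04111). SIGIRR, an inhibitory receptor of the family, was higher by 0.84 ± 0.16 (adjusted p = 0.01332) and was the only call among 3 tested other receptors and binding proteins, whose median was 0.35. IL1RAP, the partner of IL1R1, named for its role after its values were seen, was at 1.02 to 7.09 FPKM in 90 and 0.204 to 1.01 FPKM in PANC-1 and did not pass (-1.17 ± 0.55, adjusted p = 0.161).

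NF-kB subunits and feedback genes split, with 4 of 13 tested higher and 6 lower in PANC-1 and a median of 0.11. NFKBIB, an inhibitor of NF-kB, was at 14.9, 12.6 and 15.7 FPKM in 90 and at 151, 170 and 127 FPKM in PANC-1, a difference of 3.28 ± 0.17 (adjusted p = 0.0002546). ZC3H12A, an RNase that degrades IL6 mRNA and other cytokine mRNAs, was lower, with a difference of -2.90 ± 0.17 (adjusted p = 0.0003699), at 29.5 to 40.1 FPKM in 90 and 3.62 to 3.89 FPKM in PANC-1. TNFAIP3, a ubiquitin-editing feedback inhibitor, was lower, with a difference of -1.88 ± 0.23 (adjusted p = 0.002991). NFKBIA, another inhibitor of the NF-kB subunits, named after its values were seen, was lower in PANC-1, at 52.5 to 70.5 FPKM in 90 and 37.8 to 42.2 FPKM in PANC-1 (-0.63 ± 0.15, adjusted p = 0.02606). Inhibitors of NF-kB in the list thus differed in both directions.

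Of 4 tested other receptors of the IL-6 family, 2 were higher and 0 lower in PANC-1, with a median of 1.29 and against 38.8% of all tested genes called. IL27RA, which pairs with gp130 for IL-27, was higher by 2.70 ± 0.22 (adjusted p = 0.0009562), and IL11RA by 1.33 ± 0.18 (adjusted p = 0.004332), at 2.47 to 3.32 FPKM in 90 and 8.05 to 9.58 FPKM in PANC-1. IL11RA therefore had the same order as its ligand IL11. LIFR, the receptor for LIF, named for its role after its values were seen, was at 0.011 to 0.395 FPKM in 90 and 0.183 to 5.71 FPKM in PANC-1 and did not pass (1.25 ± 0.67, adjusted p = 0.215).

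Of 4 tested other ligands of the family, 2 were lower and 1 was higher in PANC-1, with a median of -0.77. CLCF1, a ligand of the ciliary neurotrophic factor receptor, was lower, with a difference of -1.6 ± 0.14 (adjusted p = 0.001072) and CTF1, cardiotrophin 1, by -1.07 ± 0.19 (adjusted p = 0.01031). EBI3, a subunit of IL-27 and IL-35, was higher by 0.84 ± 0.20 (adjusted p = 0.02707). As with LIF, IL6 and IL11, ligands of the family differed in both directions.

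Of 6 tested JAK-STAT3 signalling genes, 3 were higher and 0 lower in PANC-1, with a median of 0.74 and against 38.8% of all tested genes called. STAT3 was at 20.8, 20.5 and 23.4 FPKM in 90 and at 62.4, 82.6 and 72.1 FPKM in PANC-1, a difference of 1.70 ± 0.13 (adjusted p = 0.000841), and the kinase JAK1 was higher by 1.17 ± 0.34 (adjusted p = 0.04894). GRB2, an adaptor to the RAS pathway, was higher by 0.79 ± 0.13 (adjusted p = 0.008395). STAT3 feedback and target genes did not move together: of 13 tested, 2 were higher and 3 lower, with a median of -0.12. SOCS3, the feedback inhibitor that binds gp130, was higher by 1.66 ± 0.18 (adjusted p = 0.002059), while the transcription factors CEBPD (-2.52 ± 0.21, adjusted p = 0.0009299) and JUNB (-1.64 ± 0.17, adjusted p = 0.001846) were lower. Of 4 tested genes that shed IL6R and other receptors, RHBDF1, a cofactor of the protease ADAM17, passed, lower, with a difference of -1.0 ± 0.18 (adjusted p = 0.01158), with a median of 0.09 over the 4.

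No gene of these 10 lists passed in any siALDOA comparison.

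**Figure D4:**
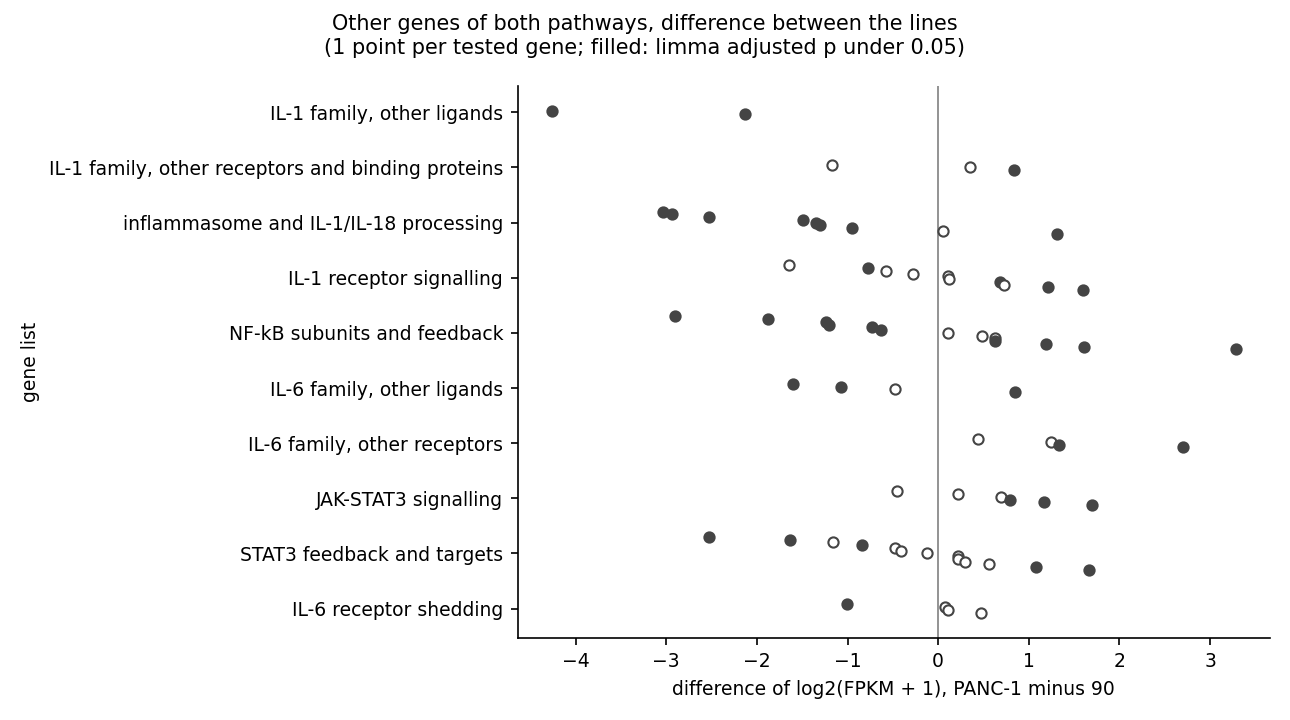
Difference of log2(FPKM + 1) between the lines, PANC-1 minus 90, for the tested genes of the 10 pathway lists, with filled points for genes with a limma adjusted p under 0.05. Filled points lie mostly on the left for inflammasome and processing genes (7 of 8) and on the right for JAK-STAT3 genes (3 of 3), and on both sides for NF-kB genes.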

How the data were processed

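Poly(A)-selected RNA of 6 libraries was sequenced, per the labels' protocols. The authors deposited FPKM values per gene, made with HISAT2 and featureCounts on hg38, per the submitters' processing notes; the sources used here give no settings, gene lengths or strand use. Library totals (17.8, 19.5 and 19.0 M fragments in NC, siALDOA 1 and siALDOA 2 of 90, and 20.6, 21.8 and 18.7 M in PANC-1) were recovered from short RNA genes, and whole fragments for 99.9% of genes above 0 (tolerance 0.01). Genes averaging 1 FPKM or more were tested as log2(FPKM + 1) with limma 3.58.1 (R 4.3.3, trend prior, two-sided, Benjamini-Hochberg, threshold 0.05). The fit had terms for line and siALDOA, with all 6 libraries. Effects within a line came from a fit of 4 group means, where the lone NC library is assumed to vary like the others. The fits were tested on simulated data.

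The 10 genes and the lists were chosen with earlier results of these data known. Of each list, up to 3 called genes with the largest difference are named, and for each tested gene the 2 nearest by distance, of which 1 is not reported here. Alternatives were other pseudocounts, filters and scalings, a GC correction, each library left out, a replicate block and, added after seeing the data, limma-voom on recovered fragments, a crossed block and pooled ratios with a library left out. Coordinates are from GENCODE v29 (GRCh38). Promoters are from RefSeq.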

Additional observations from a re-analysis of the deposited data

Results flagged for a closer look

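IL1B was lower than NC in both siALDOA libraries of 90 and higher than NC in both of PANC-1, in values without GC correction. The difference of the siALDOA effects, PANC-1 minus 90, was 0.747 ± 0.55 (SE) on the log2(FPKM + 1) scale and did not pass (limma, unadjusted p = 0.2479, adjusted p = 1.0). The PANC-1 levels behind it rest on 3 fragments in NC, 30 in siALDOA 1 and 4 in siALDOA 2. With 1 library left out the difference ranged from 0.40 to 1.09, and limma-voom on recovered fragments gave 2.14 ± 1.41 (unadjusted p = 0.2017). After GC correction siALDOA 2 of PANC-1 lay below NC, at -0.14. IL1B was at 0.119 log2 units in NC of PANC-1 before the correction, so its level does not allow a fall of that size. The turned sign is therefore not read as a result.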

How the results depend on the processing

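The calls of IL1A, IL1B, IL1RN and IL6R between the lines held in 20 of 20 alternatives. With 1 library left out, 4 to 6 of the genes were called, 4 without the NC library of 90 (2424 genes called over all, compared with 4882) and 4 without that of PANC-1 (2422 genes). No count of calls is given for the fit without siALDOA 1 of both lines, which left 1 library in each group. The replicate numbers pair siALDOA libraries that deviate in opposite directions (r = -0.86 across genes), and no label says they share a batch: a replicate block gave 6 calls among the genes of the families and 3258 over all, a block with crossed numbers 7 and 7594. No siALDOA comparison gave a call among these genes under any setting run; the fits within a line could not be made without its NC library or without siALDOA 1 of both lines.

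Signs turned for small values as follows, and the cause was not tested. The IL6ST difference between the lines was -0.19 with limma-voom and -0.83 to 1.47 with 1 library left out. Over both lines, the siALDOA change of IL1B was -0.17 with limma-voom, -0.15 without siALDOA 1 of both lines and -0.35 to 0.40 with 1 library left out, and that of IL6R was -0.0621 with quantile scaling and -0.0070 to 0.20. Also with 1 library left out, the change over both lines ranged from -0.077 to 0.46 for IL18, -0.89 to 2.18 for IL6ST and -0.077 to 0.095 for LIF. In 90, IL6R was at 0.0206 as TPM, 0.0596 after GC correction and -0.021 to 0.0067 with 1 library left out, LIF at 0.0134 after GC correction and -0.22 to 0.11, and IL18 at -0.47 to 0.31. In PANC-1, IL1RN was at -0.0211 after GC correction and -0.036 to 0.13, IL6ST at -2.62 to 0.84, LIF at -0.11 to 0.27 and IL11 at -0.19 to 0.0088. The difference of the siALDOA effects was 0.0512 for IL1RN with a pseudocount of 0.1 and ranged from -0.056 to 0.32 for LIF. Levels of IL1A, IL1B, IL1RN and IL6 in PANC-1 rest on 0 to 30 fragments per library.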
